A study of Mus musculus with 8 samples.

Results

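The collagen chains described here are the genes whose name on the array is Col followed by a type number, the letter a and a chain number. This rule found 44 of the 23123 named genes on the array, read by 69 of its 55681 probes. By the way the proteins assemble, 41 of the 44 fall into 6 families: 11 fibrillar chains, 9 network-forming chains, 9 fibril-associated chains with interrupted triple helices (FACIT), 6 beaded-filament chains, 4 transmembrane chains and 2 multiplexins. The other 3, Col7a1, Col26a1 and Col28a1, lie outside these families. RNA was measured on one-colour Agilent arrays in 4 groups with 2 arrays each: pulmonary single cells, which are the dissociated lung, and 3 sorted fibroblast populations that the labels call A-type, B-type and C-type. All 4 groups came from lungs of adult female C57BL/6 mice aged 12 to 16 weeks, and the labels name no further allele or agent. Each sample held 50000 freshly isolated cells, and 10 ng of its RNA was amplified before labelling. Per the labels, the samples within a group are independent preparations, and the number of mice is not stated. They name antibodies against lineage markers, Pdgfra, Sca-1 and Thy-1 for the sort, but the sources used here do not state which combination marks the A, B or C population. The arrays are called Pu1 and Pu2, A1 and A2, B1 and B2, and C1 and C2.

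Collagens are extracellular matrix proteins built from 3 chains wound into a triple helix, in which glycine recurs in a fixed rhythm along the chain. Fibrillar collagens give tissue its tensile strength, FACIT collagens sit on the fibril surface, type IV networks form the scaffold of basement membranes, type VI forms beaded filaments near cells, and transmembrane collagens are carried on the cell surface. In the lung, fibroblasts lay down most fibrillar collagen, whereas basement membranes also receive chains from epithelium and endothelium.

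Values are log2 signal after subtraction of the array's 75th percentile, called scaled log2 signal below, and each group mean rests on 2 arrays. A gene was tested when its probe was well above background on both arrays of at least 1 group, which held for 35 of the 44 chains and for 17031 genes in all. Of the 35, 28 were above background on all 8 arrays, 29 were above it on both pulmonary arrays, and 0 had entered through a single group. Differences were tested with limma, and a chain was called where the p-value, adjusted by Benjamini-Hochberg over all genes tested, was under 0.05. The 75th percentile lay between 110.2 and 250.1 signal units, and 54.6 to 68.7% of spots were well above background. Arrays of a group correlated, across genes, at 0.986 (A), 0.985 (B), 0.947 (C) and 0.916 (pulmonary), so the A and B means are the better determined. The pulmonary arrays lay on slide 1 and all 6 fibroblast arrays on slide 2, so slide and cell source cannot be told apart in any comparison with the pulmonary single cells. All 5 fibroblast markers checked (Pdgfra, Dcn, Lum, Pdgfrb and Tcf21) were called higher in each fibroblast type than in the pulmonary single cells. Among all genes tested, 15.3% were called higher in A, 16.7% in B and 15.2% in C. The labels name an antibody against Pdgfra for the sort, so its rise is not an independent check. In bulk RNA, fewer cells of a type and less RNA per cell cannot be told apart.

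Against the pulmonary single cells, collagen chains were mostly higher in the sorted fibroblasts. In the A type, 21 of the 35 tested chains were called higher and 0 lower, where 15.3% of all genes tested were higher and 11.9% lower. In the B type, 18 were higher and 0 lower, against 16.7% higher and 13.1% lower (29.8% in either direction) among all genes. In the C type, 22 were higher and 1, Col4a3, was lower, against 15.2% and 13.8%. Over the tested chains, the median log2 difference was 2.53 in A, 1.82 in B and 2.87 in C, beside 0.13, 0.13 and 0.06 over all genes tested. These 3 comparisons share the pulmonary arrays, so their counts do not repeat one another independently. The split of all calls moved with the scaling: higher genes made up 56.2%, 56.2% and 52.4% of the calls in A, B and C here, 68.8%, 70% and 69.5% with median scaling, and 41.9%, 39.3% and 36.6% with the percentile taken over probes above background on all arrays. The counts differed between families, which was not tested: all 4 tested beaded-filament chains and both multiplexins were higher in the A type, but 2 of 8 network chains and 3 of 7 FACIT chains. The plot of all tested chains by array shows that the rise was carried by both arrays of a type for most chains.

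**Figure D1:**
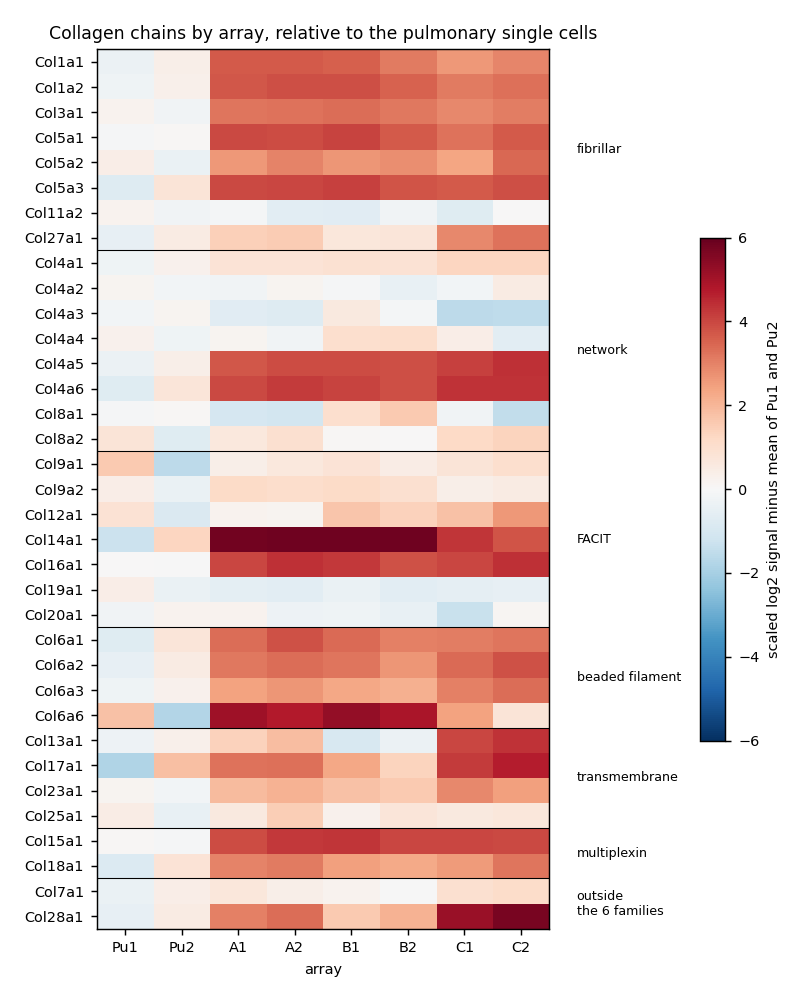
Scaled log2 signal of the 35 tested collagen chains on each of the 8 arrays, minus the mean of Pu1 and Pu2, with chains in rows grouped by family and arrays in columns. Red is higher and blue lower than the pulmonary mean. Most fibrillar, beaded-filament and multiplexin rows are red on all 6 fibroblast arrays, and the Col13a1, Col27a1 and Col28a1 rows are darkest on C1 and C2.

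Among the fibrillar chains, 7 of 8 tested were higher in A, 6 in B and 7 in C. Types I and III make the major fibrils. Col1a1, the larger part of the type I trimer, had scaled log2 signals of 1.98 and 2.69 on the pulmonary arrays, 6.01 and 6.02 in A, 5.92 and 5.47 in B, and 4.92 and 5.26 in C. The fibroblast arrays lay above both pulmonary arrays with no overlap, and the C type lay below the A and B types. It exceeded the pulmonary mean by 3.68 ± 0.35 (SE) in A (12.8-fold, adjusted p = 0.000443), 3.36 ± 0.35 in B (10.3-fold) and 2.76 ± 0.35 in C (6.77-fold). Its partner Col1a2, the second chain of that trimer, differed by 3.80, 3.70 and 3.20 (SE 0.31), and Col3a1, the chain of the type III homotrimer, by 3.23, 3.27 and 2.98 (SE 0.28). These type I and III chains were thus 6.77 to 13.9-fold higher in every fibroblast type.

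Type V collagen sits inside type I fibrils and sets their diameter. Its 3 chains were called higher in each type: Col5a1 by 3.93, 3.86 and 3.45 (SE 0.29), Col5a2 by 2.78, 2.72 and 2.90 (SE 0.46), and Col5a3 by 4.0, 3.92 and 3.78 (SE 0.49). Pu1 and Pu2 differed for Col5a3, at -3.02 and -1.5, so that its differences were 3.25, 3.16 and 3.02 without Pu1 and 4.76, 4.68 and 4.54 without Pu2. Col11a2, a chain of type XI collagen of cartilage fibrils, was called in no type, with differences of -0.37, -0.45 and -0.35 (SE 0.39). Of the chains not tested, Col2a1 and Col24a1 were above background on 0 arrays and Col11a1 on A2 alone. Col27a1, a fibrillar chain known from cartilage, behaved otherwise and is described with the differences between types.

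**Figure D2:**
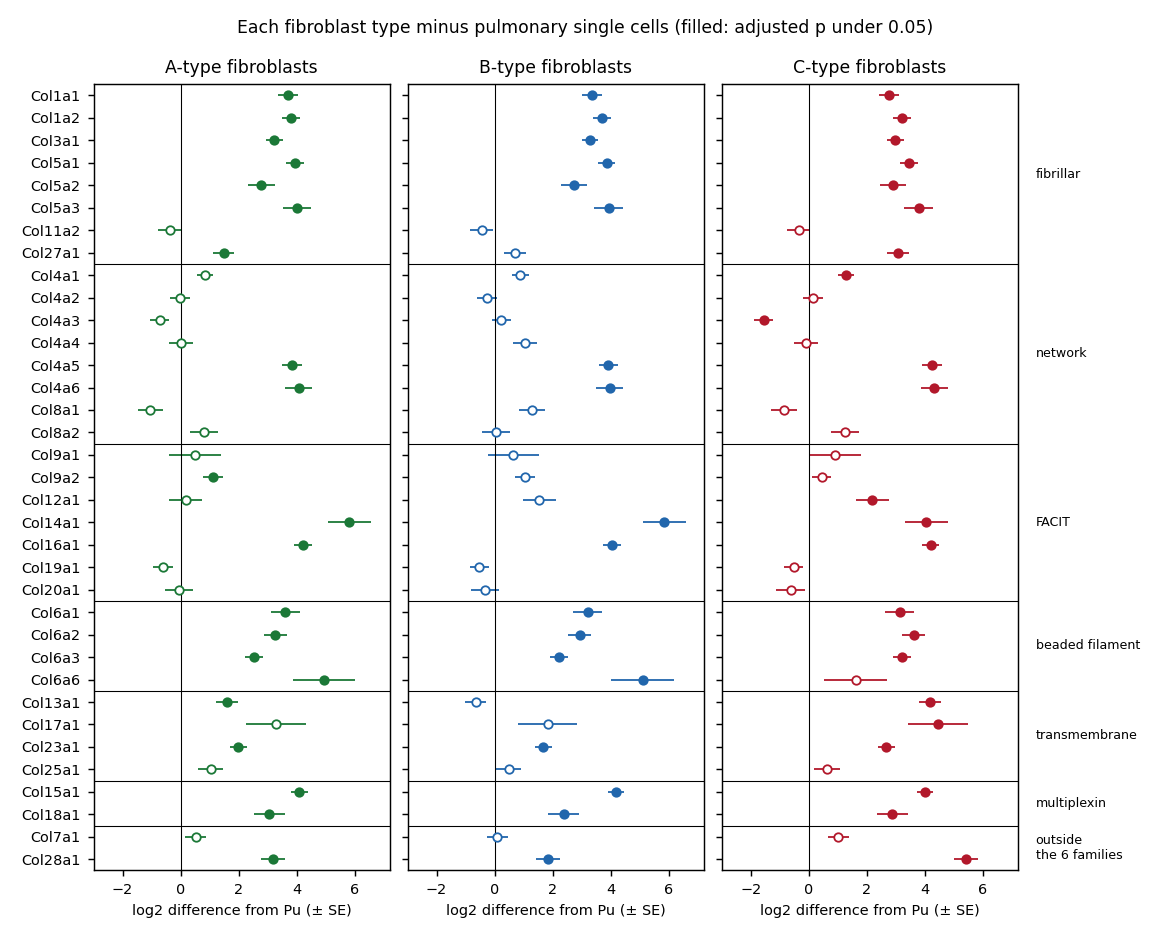
Difference in scaled log2 signal between each fibroblast type and the pulmonary single cells for the 35 tested chains, with the SE of the limma fit (2 arrays a group). Filled points passed an adjusted p under 0.05 over all 17031 genes tested. Col14a1 lies farthest to the right in the A and B panels and Col28a1 in the C panel, where Col4a3 is the filled point below 0.

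Network-forming chains differed from the pulmonary single cells by -1.04 to 4.06 in A. The range was -0.26 to 3.97 in B and -1.55 to 4.32 in C. Type IV collagen has 6 chains, encoded in 3 head-to-head gene pairs, that assemble into a common trimer of alpha1 and alpha2, a trimer of alpha3, alpha4 and alpha5, and a trimer of alpha5 and alpha6. Per-array values are given for all 6, of which only Col4a3 was chosen by the rule for named genes and the others after their values were seen. Col4a5 had scaled log2 signals of -2.19 and -1.46 on the pulmonary arrays, 1.89 and 2.10 in A, 2.09 and 2.06 in B, and 2.26 and 2.56 in C. Col4a6 had -3.13 and -1.69 on the pulmonary arrays, 1.54 and 1.77 in A, 1.64 and 1.48 in B, and 1.91 and 1.91 in C. For both chains, all 6 fibroblast arrays lay above both pulmonary arrays and close to one another. Col4a5 differed by 3.83, 3.90 and 4.24 (SE 0.33; 14.2, 15.0 and 18.9-fold) and Col4a6 by 4.06, 3.97 and 4.32 (SE 0.46; 16.7, 15.6 and 20.0-fold), with adjusted p between 0.000257 and 0.00107. The Col4a6 differences depended on the pulmonary array kept: they were 3.34, 3.25 and 3.60 without Pu1 and 4.78, 4.68 and 5.04 without Pu2. They also depended on the probe. The second Col4a6 probe, above background on all 8 arrays, read smaller differences of 1.71, 1.52 and 2.14, called in each type.

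The common basement membrane chains behaved differently. Col4a1 had 2.21 and 2.69 on the pulmonary arrays, 3.28 and 3.28 in A, 3.36 and 3.30 in B, and 3.72 and 3.74 in C. Its fibroblast arrays were higher without overlap, but it was called in the C type alone (1.28 ± 0.28, 2.44-fold, adjusted p = 0.0149), a call that was lost with array weights (adjusted p = 0.0725) and with only the 4 arrays compared (0.134). For A and B, differences of 0.83 and 0.88 missed the threshold (adjusted p = 0.0682 and 0.0539) and passed it under median scaling (1.16 and 1.23), and the difference between types was not called. Col4a2, its partner, had 2.86 and 2.55 on the pulmonary arrays, 2.49 and 2.87 in A, 2.64 and 2.24 in B, and 2.54 and 3.18 in C. Every fibroblast type overlapped the pulmonary arrays for Col4a2, with differences of -0.03, -0.26 and 0.15 (SE 0.35), none of them called.

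Col4a3 and Col4a4 belong to the specialised network found in alveolar and kidney basement membranes. Col4a3 had -1.95 and -1.65 on the pulmonary arrays, -2.47 and -2.58 in A, -1.22 and -1.91 in B, and -3.38 and -3.32 in C, with C2 not well above background. It was lowest in the C type and overlapped between the B type and the pulmonary single cells. The C-type difference from the pulmonary single cells was -1.55 ± 0.32 (adjusted p = 0.0123) and -0.33 with another background correction (normexp), where the call was lost, as it was under median scaling (-1.15) and with only the 4 arrays compared (adjusted p = 0.079). Col4a4, which shares a promoter region and a trimer with Col4a3, had -0.56 and -1.07 on the pulmonary arrays, -0.63 and -1.0 in A, 0.20 and 0.25 in B, and -0.39 and -1.42 in C. Both B arrays were above all others for Col4a4, but its B-type difference of 1.04 ± 0.41 was not called (adjusted p = 0.0978). It passed under median scaling (1.39, adjusted p = 0.0284), with normexp (0.0476), in the authors' table (0.0285), with the mean of its probes (0.0299) and without C1 or C2 (0.0475). The type VIII chains of the endothelial and vascular network, Col8a1 and Col8a2, were not called in any type with the 75th percentile, although median scaling called Col8a1 in B (1.63, adjusted p = 0.028) and Col8a2 in C (1.66, adjusted p = 0.0259), and Col10a1, the chain of growth plate cartilage, was above background on 0 arrays. Col8a1 lay at 0.29 and 0.85 in the B type against -1.70 and -1.79 in the A type, an A minus B difference of -2.32 ± 0.45 that missed the threshold (adjusted p = 0.254) and passed it with array weights (0.00968). Its B minus C difference of 2.13 (4.38-fold, adjusted p = 0.0633) passed with normexp (0.0236), with genes above background on all 8 arrays (0.0415), with trend and robust (0.0489), with array weights (0.0377) and without C1 (2.76, 0.0169).

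**Figure D3:**
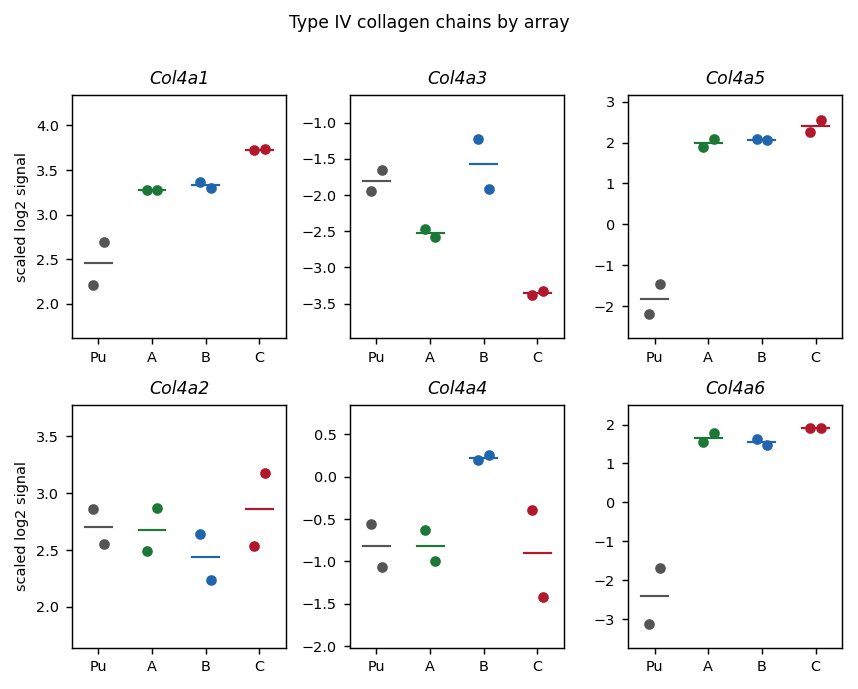
Scaled log2 signal of the 6 type IV collagen chains on each array, with points for arrays, bars for the mean of the 2 arrays of a group, and a separate vertical axis for each chain. Col4a5 and Col4a6 rise by about 4 units in all 3 fibroblast types, Col4a1 is highest in C, Col4a2 overlaps in all groups, and Col4a3 and Col4a4 have their highest means in B.

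The head-to-head pairs allow the stretches before both starts to be set side by side. In the RefSeq promoter table (GRCm38.p6), 35 of the 44 chains had an entry. The starts of Col4a5 and Col4a6, which rose together, lie 1343 bases apart, and those of Col4a1 and Col4a2, of which only Col4a1 was called, lie 21 bases apart, so that their table entries (250 bases before to 50 after a start) overlap by 78 bases. The 250 bases before the start of Col4a5 (chrX:141475169-141475418, plus strand) and of Col4a6 (chrX:141474077-141474326, minus strand) are shown because these neighbours had the highest differences of the network family, and capitals mark the motifs found in them.
Col4a5: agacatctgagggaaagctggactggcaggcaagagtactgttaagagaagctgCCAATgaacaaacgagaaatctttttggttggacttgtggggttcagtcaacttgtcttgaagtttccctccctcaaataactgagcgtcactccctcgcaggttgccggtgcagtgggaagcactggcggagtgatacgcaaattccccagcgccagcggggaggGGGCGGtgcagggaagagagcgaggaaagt
Col4a6: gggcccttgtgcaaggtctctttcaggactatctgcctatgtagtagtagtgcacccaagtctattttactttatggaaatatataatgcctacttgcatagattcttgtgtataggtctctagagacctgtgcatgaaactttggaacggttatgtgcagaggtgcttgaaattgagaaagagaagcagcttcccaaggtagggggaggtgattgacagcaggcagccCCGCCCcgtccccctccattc
The motifs searched on both strands were TATAAA, known as the TATA box, CCAAT, bound by NF-Y, GGGCGG, the GC box bound by Sp proteins, TGANTCA, bound by AP-1, and GACCACCCA, bound by Gli proteins. No motif of this list contains another. The Col4a5 stretch held CCAAT and the GC box, and the Col4a6 stretch held the GC box on its other strand. The GC box was found in 32.7% and CCAAT in 33.8% of 32851 such upstream stretches of the table, and in 21 and 13 of the 35 collagen stretches. The TATA box was found in 12.4% of all stretches and 5 of the collagen ones, the AP-1 motif in 6.75% and 1, and the Gli motif in 0.225% and 0.

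Among the FACIT chains, 3 of 7 tested were higher in A, 2 in B and 3 in C. Col14a1, which binds fibril surfaces and spaces them, had scaled log2 signals of -2.72 and -0.16 on the pulmonary arrays, 4.33 and 4.40 in A, 4.41 and 4.39 in B, and 2.87 and 2.32 in C. The A and B arrays were nearly equal, the C arrays lay below them, and all 6 lay above the pulmonary arrays. The differences were 5.80, 5.84 and 4.04 (SE 0.74; adjusted p = 0.0016, 0.00154 and 0.00736), and they were 4.53, 4.56 and 2.76 without Pu1 and 7.08, 7.12 and 5.32 without Pu2. The fold therefore depends on which pulmonary array is kept, while the call held without either.

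Col16a1, a FACIT chain found in basement membrane zones and on fibrils, differed by 4.20, 4.04 and 4.20 (SE 0.30) and its pulmonary arrays lay at -0.59 and -0.62. Col12a1, another fibril-surface chain, was called in the C type alone (2.18 ± 0.56, adjusted p = 0.0272), with -1.73 and -3.43 on the pulmonary arrays, -2.39 and -2.42 in A, -0.90 and -1.20 in B, and -0.80 and 0.01 in C. Its 2 probes disagreed: the other probe was lower in the C type (-1.47, adjusted p = 0.0387) and in the B type (-1.60, adjusted p = 0.0292). In B the brightest probe read 1.53 and was not called. The mean of both probes gave 0.36 in C with no call. The call of the brightest probe was also lost without C2 (adjusted p = 0.116) and when any A or B array was left out (0.0539 and 0.0517), and its value was 3.03 without Pu1 and 1.33 without Pu2. No direction can be given for Col12a1.

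Col9a2, a chain of the cartilage collagen IX, was called in the A type (1.12 ± 0.34, adjusted p = 0.048). The nearly equal B-type difference (1.05, adjusted p = 0.055) missed the threshold and passed it under median scaling (0.0155), among other settings. The A-type call was lost under several other settings, among them normexp (0.68, adjusted p = 0.0658), and when Pu2 or any fibroblast array was left out. Col9a1, Col19a1 and Col20a1 were called in no type. Col9a1 had -2.00 and -5.15 on the pulmonary arrays, with Pu2 not above background, so that its sign turned with the array left out. Col9a3 and Col22a1 were above background on 0 arrays.

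Of the beaded-filament chains of type VI collagen, Col6a1, Col6a2 and Col6a3 form the classical trimer. Col6a1 differed by 3.60, 3.21 and 3.13 (SE 0.50), Col6a2 by 3.26, 2.92 and 3.61 (SE 0.41) and Col6a3 by 2.53, 2.21 and 3.20 (SE 0.31), all called in each type. The Col6a1 differences moved by over 1.5-fold with the pulmonary array left out, the A-type one to 2.85 without Pu1 and 4.34 without Pu2. Of the alternative chains that can take the place of Col6a3, Col6a4 and Col6a5 were not tested, and Col6a6 was called in the A and B types only.

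Col6a6 had -2.87 and -6.40 on the pulmonary arrays, 0.45 and 0.15 in A, 0.62 and 0.29 in B, and -2.20 and -3.84 in C, with Pu2 and C2 not well above background. The A and B arrays stood above all others, and the C arrays overlapped the pulmonary ones. Its differences were 4.94 ± 1.07 in A (adjusted p = 0.0146) and 5.09 ± 1.07 in B (adjusted p = 0.0125), with 1.62 in C not called. With the pulmonary arrays set no lower than the lowest signal above background, the A and B folds were 15.3 and 17.1, against 30.6 and 34.1 as measured. The A-type difference was 6.71 without Pu1 and 3.17 without Pu2, and the calls were lost when 1 array of the fibroblast type concerned was left out (adjusted p between 0.0572 and 0.0787). The second probe gave the same calls (2.68 and 3.0, adjusted p = 0.00219 and 0.00132).

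Both multiplexins, basement membrane collagens with long interruptions whose C-terminal parts are released as endostatin-like fragments, were higher in each type. Col15a1 differed by 4.08, 4.17 and 3.99 (SE 0.28), and its pulmonary arrays lay at -2.27 and -2.45. Col18a1 differed by 3.06, 2.37 and 2.87 (SE 0.53), its pulmonary arrays lay at -3.53 and -1.90 with Pu1 not above background, and the B-type call was lost when either B array was left out (adjusted p = 0.0936 and 0.0738). Its differences were 2.24, 1.56 and 2.05 without Pu1 and 3.87, 3.18 and 3.68 without Pu2.

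Outside the 6 families, Col7a1, the chain of the anchoring fibrils below epithelium, was called in no type (0.51, 0.09 and 1.02, SE 0.35), although its C-type difference passed under median scaling (1.43, adjusted p = 0.0356) and without Pu2 (0.0138). Col26a1 was not tested, since its brightest probe was above background on 0 arrays. Col28a1 was called in each type and is described next.

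Between fibroblast types, few chains differed. With all 8 arrays in the fit, 0 chains were called between the A and B types, where 0% of all genes were called (limma, 6 chains and 557 genes at an unadjusted p under 0.05). Between the A and C types 0 chains were called, where 0.411% of all genes were. At an unadjusted limma p under 0.05 there were 8 of the 35 chains, beside 2222 of all 17031 genes. Between the B and C types 4 chains were called, where 2.47% of all genes were (1.26% higher and 1.21% lower in B): Col13a1, Col27a1 and Col28a1 were higher in the C type and Col4a3 in the B type. The medians over the tested chains were 0.09, -0.09 and -0.16 for A minus B, A minus C and B minus C, beside -0.01, 0.06 and 0.06 over all genes.

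The pulmonary arrays differed most from each other, with 31.3% of genes at least 2-fold apart, against 5.06% in A, 5.37% in B and 20.7% in C. The types were therefore also compared on the 6 arrays of their own slide. The differences stayed the same by construction and only their spread changed. In this fit, 4 chains were called between A and C, where 1.34% of all genes were, and 8 between B and C, where 4.72% were. The A and C types differed in Col13a1, Col27a1 and Col28a1, higher in C, and in Col14a1, higher in A. The B and C types differed in these 4 in the same directions, in Col17a1 and Col8a2, higher in C, and in Col4a3 and Col6a6, higher in B. Of these 8, the array values of Col14a1, Col17a1, Col6a6 and Col8a2 were given after they were seen.

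**Figure D4:**
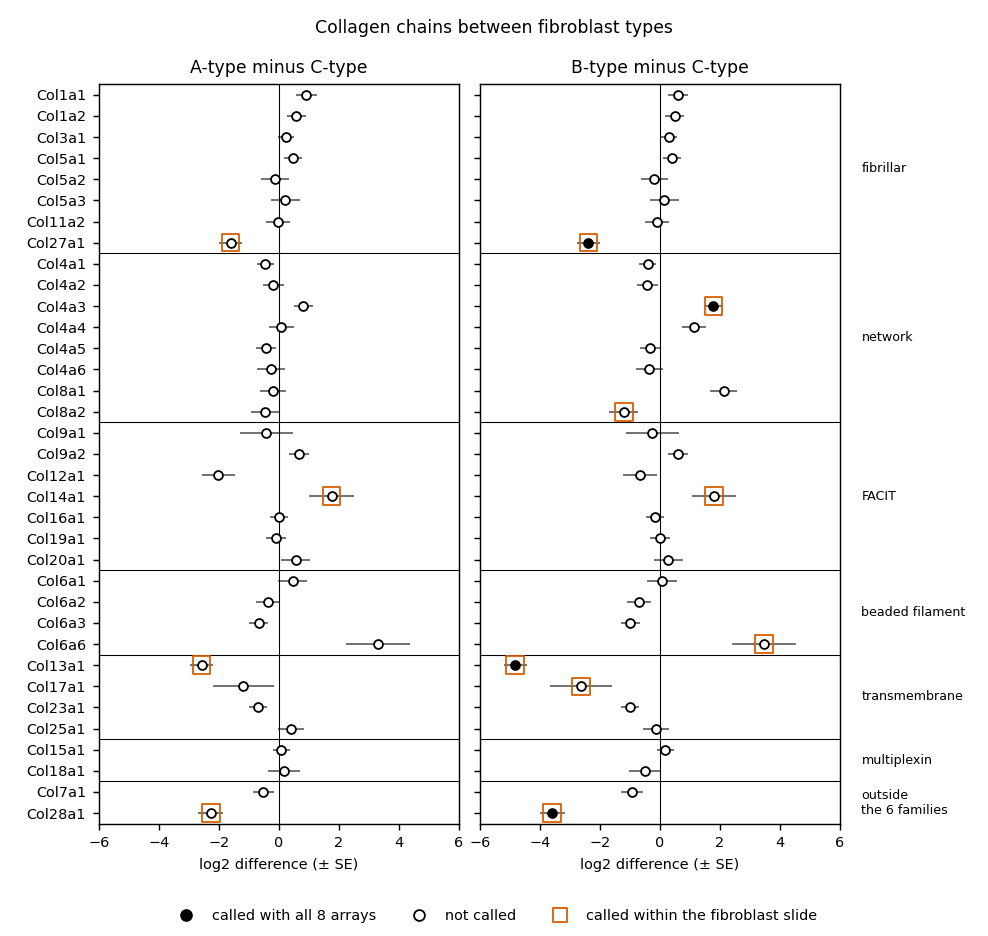
Difference in scaled log2 signal between A-type and C-type and between B-type and C-type fibroblasts for the 35 tested chains, with the SE of the fit over all 8 arrays. Filled points were called in that fit (4 for B minus C) and orange squares mark the chains called in the fit over the 6 fibroblast arrays (4 and 8). Col13a1 lies at -4.83 and Col28a1 at -3.59 in the B minus C panel.

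Col13a1, a transmembrane chain found at cell adhesion sites and at the neuromuscular junction, showed the largest difference between types of all 35 chains. Its scaled log2 signals were 0.53 and 0.85 in C, -2.11 and -1.64 in A, -4.45 and -3.81 in B, and -3.78 and -3.17 on the pulmonary arrays. The C arrays stood above all others, the A arrays came next, and B1, B2 and Pu1 were not well above background. The B minus C difference was -4.83 ± 0.38 (adjusted p = 0.00308). Since neither B array was well above background, this is stated as at least 23.1-fold higher in C. For this, B1 was set at the lowest signal above background on its array. B2 kept its measured value, which lay above that lowest signal on its own array. The A minus C difference of -2.57 (5.93-fold) passed within the slide (adjusted p = 0.0414) and missed the threshold with all 8 arrays (adjusted p = 0.0501). Against the pulmonary single cells, Col13a1 rose by 4.17 ± 0.38 in the C type (adjusted p = 0.000416) and by 1.60 ± 0.38 in the A type (adjusted p = 0.0199), and the A-type call was lost with normexp (0.48) and without Pu1, A1 or A2 (adjusted p = 0.0631, 0.0622 and 0.146). Without B1, the B minus C difference was -4.51 and missed the threshold (adjusted p = 0.0558).

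Col28a1, a short collagen with von Willebrand factor A domains known from peripheral nerve, had 1.25 and 1.79 on the C arrays, -0.91 and -0.57 on A, -2.32 and -1.82 on B, and -4.38 and -3.43 on the pulmonary arrays, with Pu1 not above background. No group overlapped another, in the order C, A, B and pulmonary single cells. It was 12.1-fold higher in C than in B (B minus C -3.59 ± 0.42, adjusted p = 0.00854), and this call was lost without B1 (adjusted p = 0.0989) or B2 (adjusted p = 0.0692). The difference from the pulmonary single cells was 5.43 ± 0.42 in C, 3.17 in A and 1.83 in B, all called. The B-type value was 0.42 with normexp and then not called, and its call was also lost without B1 or B2 (adjusted p = 0.0568 and 0.114). The A minus C difference of -2.26 missed the threshold with all 8 arrays (adjusted p = 0.0791) and passed within the slide (0.0489), with normexp (-1.61, 0.0207) and with array weights (0.0471).

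Col27a1 had 3.07 and 3.44 on the C arrays, 1.62 and 1.68 on A, 0.84 and 0.90 on B, and -0.31 and 0.66 on the pulmonary arrays. The order of the groups was the same as for Col28a1, again with no overlap. It was 5.22-fold higher in C than in B (B minus C -2.38 ± 0.38, adjusted p = 0.0249). That call was lost without A1 or A2 (adjusted p = 0.0748), without B1 (0.201), without B2 (0.192) and without C2 (0.109), and also with only the 4 arrays of both types (0.0523). Within the slide it held (adjusted p = 0.00919), as did the A minus C difference of -1.60 (adjusted p = 0.0484). Col27a1 was called higher than in the pulmonary single cells in C (3.08, 8.44-fold) and A (1.48, adjusted p = 0.0262) and not in B (0.69, adjusted p = 0.206). The A-type call was lost when either A array (adjusted p = 0.118 and 0.142) or either B array (adjusted p = 0.0581) was left out.

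Col17a1, the transmembrane collagen of epithelial hemidesmosomes, had 0.29 and 0.80 on the C arrays, -0.65 and -0.61 on A, -1.61 and -2.57 on B, and -5.71 and -2.11 on the pulmonary arrays, with Pu1 not above background. The C arrays were highest, and Pu2 lay between B1 and B2. It was called in C against the pulmonary single cells (4.46 ± 1.03, adjusted p = 0.0181), where the difference was 2.66 without Pu1 and 6.25 without Pu2, and the call was lost without C1 or C2 (adjusted p = 0.0513 and 0.0757). The B minus C difference of -2.64 passed within the slide (adjusted p = 0.0277). Of the other transmembrane chains, Col23a1 was called higher in each type against the pulmonary cells (1.98, 1.67 and 2.66, SE 0.30), with the B-type call lost without B1 (1.59, adjusted p = 0.0618). Col25a1 was called in none (1.03, 0.48 and 0.62, SE 0.44).

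The network chain Col8a2 had -0.04 and 0.12 on the C arrays, -0.57 and -0.25 on A, -1.15 and -1.19 on B, and -0.47 and -1.97 on the pulmonary arrays. The C arrays lay above both B arrays, and the B minus C difference of -1.21 passed within the slide (adjusted p = 0.0432). In the opposite direction, Col14a1 was 3.40-fold lower in C than in A and 3.49-fold lower than in B (adjusted p = 0.0497 and 0.025 within the slide, 0.378 and 0.311 with all 8 arrays). Col6a6 was 11.1-fold lower in C than in B as measured (adjusted p = 0.0349 within the slide, 0.178 with all 8 arrays) and 9.64-fold lower with C2 set at the lowest signal above background. Its second probe was called in the fit of every probe over all 8 arrays (B minus C 2.12, adjusted p = 0.0354). Col4a3 was 3.44-fold lower in C than in B (B minus C 1.78 ± 0.32, adjusted p = 0.0404), and 0.48 with normexp. Its call was lost under normexp, under median scaling (adjusted p = 0.0719), and when any of the 6 fibroblast arrays was left out (adjusted p between 0.0708 and 0.316).

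**Figure D5:**
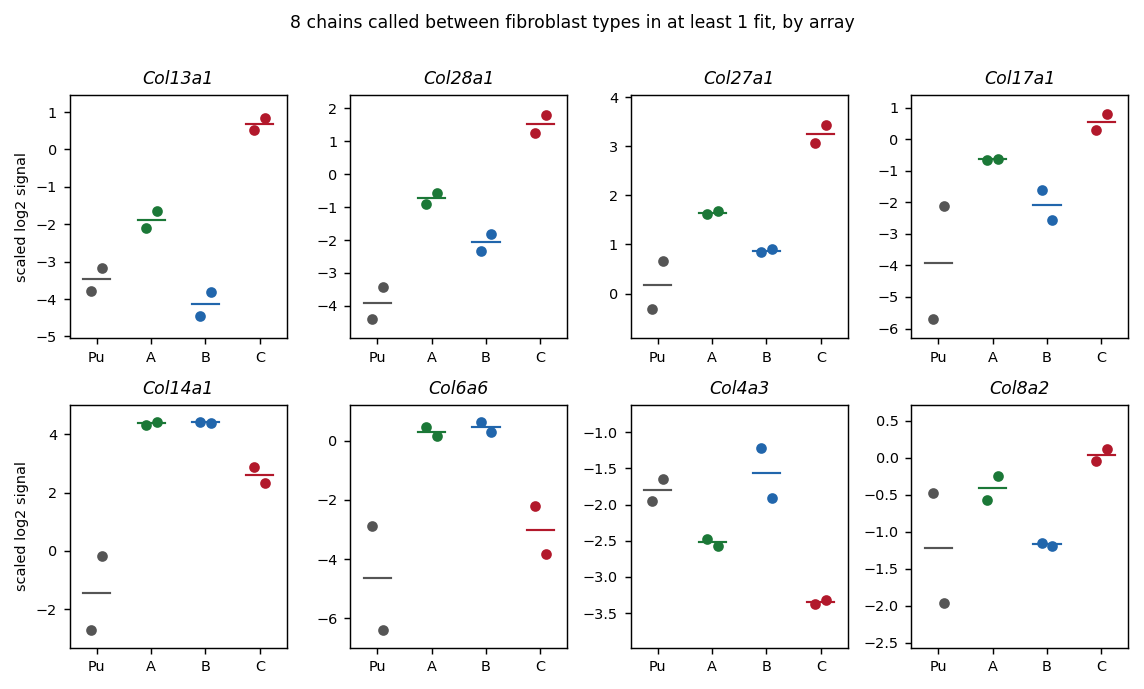
Scaled log2 signal by array of the 8 chains called between fibroblast types in at least 1 of both fits, with points for arrays, bars for the mean of the 2 arrays of a group, and a separate vertical axis for each chain. In the upper row and for Col8a2 the C arrays are highest, whereas Col14a1, Col6a6 and Col4a3 have lower values in C than in B.

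Between the B and C types, 1 endothelium marker and 1 alveolar type 2 marker were also called, where 2.47% of all genes were. Their part in these collagen differences was not tested. No tested marker of lymphatic endothelium, alveolar type 1 cells, leukocytes, smooth muscle, pericytes, mesothelium or cartilage was called between B and C. Of the 5 fibroblast markers, 1 was called between B and C, Dcn, lower in C (B minus C 2.37, adjusted p = 0.04). The summed level of the 5 was 8.69 and 8.70 on the B arrays, 8.32 and 8.54 on A, 7.27 and 6.52 on C, and 4.12 and 4.33 on the pulmonary arrays. Dcn and Lum carried the lower sum in C, whereas Pdgfra lay at 3.53 and 3.60 on B and 4.21 and 4.48 on C, and Tcf21 at 3.16 and 2.69 on B and 3.83 and 3.31 on C, neither of them called. Of the 6 endothelium markers, 1 was called between B and C, Tek, lower in C (B minus C 3.57, adjusted p = 0.00666), and the summed level was 2.93 and 2.79 on B and 2.11 and 2.18 on C. Of the 5 alveolar type 2 markers, 1 was called between B and C, Sftpc, higher in C (B minus C -3.58, adjusted p = 0.0335). Sftpa1 (-2.26) and Sftpb (-1.33) lay in the same direction and Lamp3 (0.13) and Abca3 (0.58) in the opposite one, none of them called. The summed level of the 5 alveolar type 2 markers was 2.75 and 3.27 on B and 2.71 and 2.62 on A. On C it was 4.03 and 3.25, and on the pulmonary arrays 7.99 and 8.08. Lamp3 alone lay at 2.54 and 3.07 on B and 2.73 and 2.63 on C. All 5 were above background on at least 1 C array. Of the 5 airway epithelium markers, 0 were called between B and C and 4 were above background on no C array. Of the 5 Schwann cell markers, 3 were tested and 0 called between types, with a summed level of 3.07 and 3.35 on C and 2.73 and 2.69 on B. Sftpc itself lay at 7.77 and 7.82 on the pulmonary arrays, 3.14 and 1.27 on C, and -1.82 and -0.93 on B.

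The 250 bases before the starts of the 3 chains called higher in C than in B are shown because these genes differed between types in the same direction, with capitals marking motifs of the list above (GRCm38.p6). Col13a1 starts after chr10:61979109-61979358 (minus strand), Col27a1 after chr4:63215162-63215411 (plus strand) and Col28a1 after chr6:8192618-8192867 (minus strand).
Col13a1: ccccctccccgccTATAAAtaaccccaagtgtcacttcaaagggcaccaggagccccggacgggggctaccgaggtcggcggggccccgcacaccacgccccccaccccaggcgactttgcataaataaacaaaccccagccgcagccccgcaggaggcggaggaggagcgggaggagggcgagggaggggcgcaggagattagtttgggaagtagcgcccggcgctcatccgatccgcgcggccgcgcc
Col27a1: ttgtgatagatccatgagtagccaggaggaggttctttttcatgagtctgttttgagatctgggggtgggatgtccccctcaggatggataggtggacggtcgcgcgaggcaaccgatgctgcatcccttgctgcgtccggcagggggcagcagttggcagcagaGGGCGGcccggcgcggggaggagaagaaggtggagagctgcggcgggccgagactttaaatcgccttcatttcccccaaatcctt
Col28a1: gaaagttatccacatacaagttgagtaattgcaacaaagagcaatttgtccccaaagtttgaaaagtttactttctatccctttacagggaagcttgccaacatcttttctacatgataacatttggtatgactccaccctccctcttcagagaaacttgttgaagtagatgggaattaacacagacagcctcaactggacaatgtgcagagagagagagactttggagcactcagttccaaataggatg
The Col13a1 stretch held the TATA box, Col27a1 held the GC box, and Col28a1 held none of the 5 motifs. They shared no motif of the list, and their GC content was 68.8%, 59.6% and 40.4%.

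Genes that modify, fold, process and bind collagen were taken as a list of 46, of which 43 were tested. In the A type 25 were higher and 4 lower than in the pulmonary single cells, in the B type 26 and 2, and in the C type 27 and 4. Among all genes tested, 15.3% were higher and 11.9% lower in A, 16.7% and 13.1% in B, and 15.2% and 13.8% in C. Between types 0 of the 43 were called, where 0% (A and B), 0.411% (A and C) and 2.47% (B and C) of all genes were. Among 15 hydroxylases and glycosyltransferases with their partners, 8, 8 and 9 were higher. The largest rises were those of P3h3 (3.43, 3.45 and 3.83) and Plod2, the lysyl hydroxylase of telopeptides (2.99, 3.25 and 3.62). P3h2, which hydroxylates type IV collagen, was lower in A (-1.91, adjusted p = 0.0113) and C (-1.52, adjusted p = 0.0262). Among 9 folding and secretion genes, 6 were higher in each type, including Serpinh1, the collagen chaperone HSP47 (2.99, 2.77 and 2.40), and Fkbp10, an endoplasmic reticulum isomerase (3.59, 3.40 and 3.36).

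Of the 7 tested propeptide genes, 4, 5 and 5 were higher, with Adamts2, which removes the amino propeptide of fibrillar chains, at 4.57, 4.45 and 3.63, and Pcolce, the enhancer of carboxyl propeptide removal, at 3.78, 3.67 and 2.98. Of 5 lysyl oxidases, which crosslink collagen, 4 were higher in each type and Loxl2 in none (0.06, 0.21 and 0.56), named with P3h2 after their values were seen. Collagen receptors moved in both directions. Ddr2, a receptor tyrosine kinase of mesenchymal cells, rose by 3.16, 3.55 and 2.87, and Itga11, the fibroblast collagen integrin, by 5.0, 5.56 and 3.21. Itga1, the alpha subunit of another collagen integrin, fell by 4.46, 4.43 and 4.76, and the leukocyte receptor Lair1 by 3.27, 3.31 and 3.39.

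The reading of a chain depended on its probe for some genes. Of the 35 tested chains, 12 had over 1 kept probe. Probes of the triple-helix region can be recognised in their own sequence, because glycine codons, GGN, recur every 9 bases. A run of at least 3 such codons at this spacing, a length set after the sequences were seen, was found in 6 of the 69 collagen probes (8.7%) and in 0.939% of all 55681 probes. These 6 are shown because for 3 of the chains they read smaller differences than the brightest probe did, with the glycine codons of the run in capitals and mm9 positions from the scanner files.
Col13a1 (chr10:61330216-61330585, minus strand): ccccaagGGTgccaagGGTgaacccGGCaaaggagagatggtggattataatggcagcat
Col14a1 (chr15:55347733-55347792, plus strand): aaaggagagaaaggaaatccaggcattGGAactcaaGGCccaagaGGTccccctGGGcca
Col15a1 (chr4:47283786-47283845, plus strand): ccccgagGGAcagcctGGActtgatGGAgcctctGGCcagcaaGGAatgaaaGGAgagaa
Col16a1 (chr4:129756457-129756516, plus strand): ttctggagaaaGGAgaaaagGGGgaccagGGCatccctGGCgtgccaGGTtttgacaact
Col25a1 (chr3:130270497-130270556, plus strand): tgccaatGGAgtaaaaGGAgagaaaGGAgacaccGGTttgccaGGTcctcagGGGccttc
Col4a4 (chr1:82515563-82515622, minus strand): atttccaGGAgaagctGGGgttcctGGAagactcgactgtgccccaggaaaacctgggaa
The Col13a1 and Col25a1 probes were the brightest of their genes and gave the values above, and the Col13a1 probe of 60 bases spans 370 bases of the genome.

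In the A type against the pulmonary single cells, the helix probe read 4.07 for Col14a1 where the brightest probe read 5.80, 2.09 for Col15a1 where it read 4.08, and 0.32 for Col16a1 where it read 4.20. The first 2 were called (adjusted p = 0.00043 and 0.0124) and the Col16a1 helix probe was not (adjusted p = 0.603), nor was it in B (0.36) or C (1.19). In C the Col15a1 helix probe read 1.24 and was not called (adjusted p = 0.0728), where the brightest probe read 3.99. The remaining Col16a1 probe was called in each type, at 2.53, 2.23 and 2.69. For Col23a1, the 2 other probes were called in C (3.05 and 2.23) but not in A (1.5 and 0.77) or B (1.99 and 0.74). The 3 probes of Col4a4, each tested alone, gave no call, at 1.04, 1.63 and 0.92 in the B type, while their mean was called there (1.2, adjusted p = 0.0299). The direction of the called chains Col14a1, Col15a1, Col18a1, Col4a6, Col6a2 and Col6a6 was the same with every kept probe in all 3 comparisons with the pulmonary single cells.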

How the data were processed

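Lung RNA was read on 8 one-colour Agilent arrays, 2 per group, grouped by the labels. The deposited scanner files hold the processed signal intensity, background-subtracted by Agilent Feature Extraction 10.10.1.1, per the file headers. The authors' deposited value table is on the log2 scale, and equals log2 of that signal minus a constant per array within 0.02 for 99.85 to 99.91% of probes. From the scanner files, control spots and 30 outlier probes were left out, spots of a probe were averaged, and log2 signal was reduced by each array's 75th percentile over probes. A gene was read by its brightest kept probe. Groups were compared with limma 3.58.1 (R 4.3.3; lmFit and eBayes over all 8 arrays, residual df 4), with Benjamini-Hochberg adjustment at 0.05 over 17031 genes. The fit was tested on simulated data. Tables and figures used Python 3.11.15, numpy 2.4.6, pandas 2.3.3 and matplotlib 3.10.9.

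The alternatives were other scalings, normexp (offset 50), the authors' table, other filters, probe rules, spread estimates, the replicate number as a block, the fibroblast slide alone, and leaving out each array. Array values are given by rule for chains called between fibroblast types or called lower than in the pulmonary single cells. Folds are given for chains sharing their trimer or promoter, and up to 3 genes a step for collagen assembly. Array values of other chains, among them Col1a1, Col12a1 and Col8a1, and the receptor Lair1 were given outside these rules. The members and lists were chosen with earlier results of these data known. P-values measure the spread between samples that the labels call independently prepared, and 2 arrays a group limit the precision. A gene whose group lay below background on every array is given as at least N-fold, with each of those arrays set no lower than its lowest signal well above background. Same-numbered arrays did not deviate together (correlations between -0.08 and 0.06 over genes), so the numbers were not taken as pairs.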

Additional observations from a re-analysis of the deposited data

Results flagged for a closer look

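For 4 chains the rise or fall against the pulmonary single cells differed between the B-type and C-type fibroblasts, by the limma test of that difference over all 8 arrays with Benjamini-Hochberg adjustment. B minus C was -4.83 for Col13a1 (adjusted p = 0.00308), -3.59 for Col28a1 (adjusted p = 0.00854), -2.38 for Col27a1 (adjusted p = 0.0249) and 1.78 for Col4a3 (adjusted p = 0.0404). In each of the 4, both arrays of one type lay beyond both arrays of the other. These chains were selected by the limma test, and the share of all genes without overlap was not counted, so this adds no support. Among all genes tested, 2.47% passed the same test.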

How the results depend on the processing

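Of 66 calls of a chain in a comparison, 50 kept call and direction under every alternative in which the chain was tested, and 0 reversed. With genes above background on all 8 arrays, chains lacking such a probe, among them Col13a1 and Col28a1, were not tested. Their calls count there as neither kept nor lost. That filter gave 18, 18 and 19 called chains in A, B and C against the pulmonary single cells, beside 21, 18 and 23. Under alternatives other than leaving out an array in turn, among them the fit of only the 4 arrays compared, 11 were lost. When an array was left out, 14 were lost and 19 moved over 1.5-fold. The number of chains called between A and B was 2 with array weights. Between A and C it was 1 with a percentile restricted to probes above background throughout, 3 with normexp, 1 with probes of a gene averaged, 1 with trend and robust, 2 with array weights and 4 within the fibroblast slide. Between B and C it was 7 with normexp, 2 with genes above background on all 8 arrays, 2 with only the 4 arrays compared and 8 within the slide. Leaving out each array in turn gave 17 to 25 chains for A against the pulmonary single cells, 14 to 22 for B, 21 to 27 for C, 0 to 0 for A minus B, 0 to 4 for A minus C and 0 to 8 for B minus C. Without Pu1 or Pu2, the comparisons between types had the same calls as within the fibroblast slide. The upper ends for A minus C and B minus C therefore repeat that fit. With the replicate number as a block, the counts were 20, 18 and 23 against the pulmonary single cells. Between types they were 0, 0 and 3 for A minus B, A minus C and B minus C. With this block, the calls of Col4a3 (B minus C, adjusted p = 0.0765) and Col9a2 (A type, 0.0642) were lost. Values that were not called turned sign for Col9a1 without Pu2 (-1.08, -0.94 and -0.67 in A, B and C, against 2.07, 2.22 and 2.48 without Pu1), Col12a1 in B with the mean of its probes (-0.034), Col19a1 in C with normexp (0.17) and Col6a6 in C without Pu2 (-0.15, against 3.38 without Pu1); the cause was not tested. Median scaling moved the median of all genes by 0.33, 0.35 and 0.40 against the pulmonary single cells, and the restricted percentile by -0.29, -0.32 and -0.31. A slide block could not be fitted against the pulmonary single cells. Probes near background limit Col13a1, Col6a6, Col17a1, Col18a1, Col28a1, Col9a1 and Col4a3.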
